A study of Homo sapiens with 24 samples.

Results

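The 32 genes described here belong to the integrated stress response and to the amino acid supply that it governs. They were taken by gene symbol from the 60660 features of the expression tables, and each symbol matched 1 feature. By role, they include 8 transcription factors and regulators (ATF4, ATF5, ATF3, DDIT3, CEBPB, CEBPG, NUPR1 and CREBRF) and 5 feedback and stress effectors (PPP1R15A, TRIB3, CHAC1, SESN2 and DDIT4). There are 8 amino acid synthesis enzymes (ASNS, PHGDH, PSAT1, PSPH, CTH, CBS, GPT2 and PCK2) and 3 mitochondrial one-carbon enzymes (SHMT2, MTHFD2 and ALDH1L2). The other members are 4 amino acid transporters (SLC7A5, SLC3A2, SLC7A1 and SLC1A4), the alanyl-tRNA synthetase AARS1, the tRNA exporter XPOT, the secreted protein STC2 and the surface receptor VLDLR.

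In the integrated stress response, kinases that sense amino acid shortage, unfolded proteins, double-stranded RNA or mitochondrial and haem stress phosphorylate the translation initiation factor eIF2. General translation falls, while the messenger RNA of ATF4 is translated more, and ATF4 with partners of the C/EBP family raises genes for amino acid synthesis, uptake and tRNA charging. PPP1R15A (GADD34) directs a phosphatase to eIF2 and so ends the response, and TRIB3 binds ATF4 and restrains it. Only RNA was measured here, so ATF4 values are RNA levels and not its activity.

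RNA was sequenced from 24 libraries, 3 in each of 8 groups, of the human prostate cancer lines LNCaP, which responds to androgen, and PC3, which grows without it. Each line was present as chronic-exposure (CE) cells, made resistant by passaging in rising amounts of Acetalax and then kept without drug for 2 weeks, and as the parental cells. Each of these 4 kinds of cells was taken after 10 µM Acetalax (oxyphenisatin acetate, studied here for its dependence on the cation channel TRPM4) for 4 h, and untreated. LNCaP was grown in RPMI-1640 and PC3 in F-12, both with 10% serum, so line and medium cannot be told apart. The groups are named by line, kind of cell and treatment, and the 3 libraries of a group by their replicate number.

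Library totals lay between 40160832 and 57728014 expected counts. The labels call every sample an epithelial cancer cell line. The 10 epithelial markers listed for this check (among them EPCAM, CDH1 and the keratins KRT8 and KRT18) summed to 8.54 to 11.2 TPM (a level scaled for gene length and library depth) in LNCaP CE libraries and 1750 to 2201 TPM in LNCaP parental libraries. They summed to 24.0 to 33.1 TPM in PC3 CE libraries and 3364 to 3873 TPM in PC3 parental libraries. Fibroblast markers summed to 786.2 to 858.1 TPM in LNCaP CE and 8.12 to 36.2 TPM in LNCaP parental libraries, and to 789.3 to 1047 TPM in PC3 CE and 31.0 to 52.1 TPM in PC3 parental libraries. The epithelial markers that the labels imply were therefore nearly absent from the CE libraries of both lines. Untreated CE groups of LNCaP and PC3 correlated more with each other (Pearson r = 0.937 across genes, on group means) than LNCaP CE did with LNCaP parental (0.742) or PC3 CE with PC3 parental (0.696). Prostate luminal markers summed to 7.30 to 13.0 TPM in LNCaP CE libraries and 4595 to 8076 TPM in LNCaP parental libraries. In PC3 they were low in both kinds of cells, at 39.5 to 59.83 TPM in CE controls and 52.72 to 54.48 TPM in parental controls. With Acetalax they were at 28.29 to 37.88 TPM in PC3 CE and 55.82 to 60.05 TPM in PC3 parental libraries. The melanocyte markers summed to 319.3 to 390.6 TPM in PC3 CE libraries, where 1 of the 8 reached 1 TPM. Endothelial markers stayed at or below 6.78 TPM and immune markers at or below 42.6 TPM in every library. TRPM4 itself stood at 8.87 to 9.73 TPM in LNCaP CE controls and 91.1 to 106.8 TPM in LNCaP parental controls, and at 16.2 to 19.4 TPM in PC3 CE controls and 42.3 to 50.6 TPM in PC3 parental controls.

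In these genes 3 libraries stood apart from the others of their group. In PC3 CE Acetalax 1, 32 of 32 members were at least 2-fold above the mean of the other libraries of the group, with a median ratio of 4.82 and a range of 2.05 to 44.2, while 10.9% of all genes with a mean of at least 1 TPM were 2-fold higher there. In LNCaP parental control 2, 15 of 32 members were at least 2-fold lower (median ratio 0.516), against 10.5% of all genes. In LNCaP parental Acetalax 3, 10 were at least 2-fold lower and 1, CHAC1, was higher (median ratio 0.693), against 11.3% of all genes lower. Both LNCaP libraries also held less of the hypoxia-inducible genes VEGFA (76.2 TPM in Acetalax 3 and 53.9 TPM in control 2, against 512.5 to 746.1 TPM in the other parental libraries) and NDRG1 (42.4 and 52.4 TPM, against 442.6 to 681.5 TPM). PC3 CE Acetalax 1 held more of them, with 228.2 TPM of VEGFA and 60.0 TPM of NDRG1, against 48.4 to 48.5 and 4.38 to 5.51 TPM in the other libraries of that group. HSPA6, a heat shock gene that stood at 18.8 and 20.8 TPM in the other LNCaP parental Acetalax libraries, was at 0.70 TPM in Acetalax 3 and at 0.32 to 0.77 TPM in the parental controls. Counts of called members are therefore given with all libraries and again without these 3, as are the single values that they move most. Leaving them out left 2 libraries each in PC3 CE Acetalax, LNCaP parental control and LNCaP parental Acetalax. The 3 were picked because they differ from their groups in these same data, which in itself narrows the spread. For comparisons that hold any of the 3, SEs and p-values without them are therefore optimistic and are no separate check. The Acetalax comparisons of PC3 parental and LNCaP CE cells hold none of the 3, though they share the fit. There a fit of only the libraries compared gave PPP1R15A SEs of 0.08 and 0.06. Without the 3 libraries they were 0.08 and 0.08. A value given once uses all libraries unless the sentence says otherwise, and the part that the 3 libraries play beyond this was not tested.

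**Figure D1:**
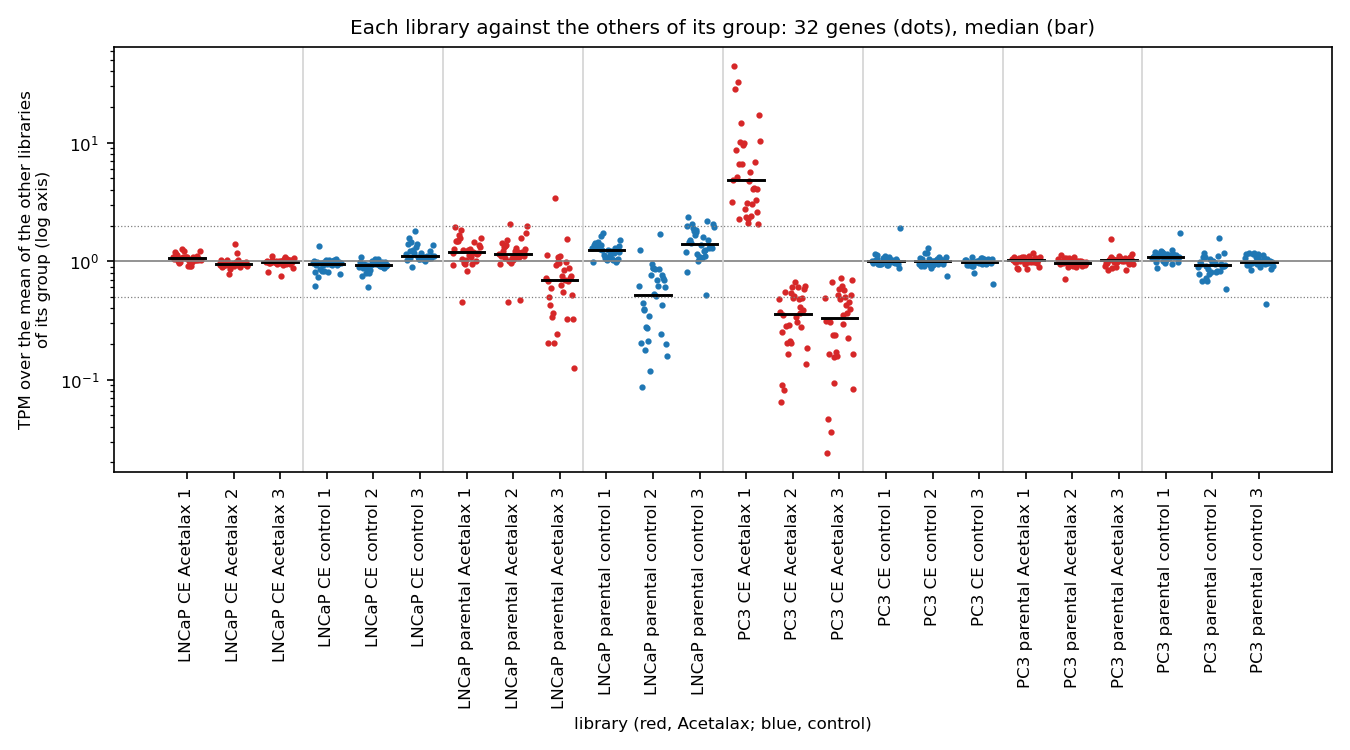
Each dot is 1 of the 32 genes in 1 library, as its TPM over the mean of the other libraries of its group, on a log axis; bars are medians, red is Acetalax and blue control, and dotted lines mark 2-fold. All 32 dots of PC3 CE Acetalax 1 lie above 2, with a median of 4.82, and the medians of LNCaP parental control 2 and LNCaP parental Acetalax 3 lie at 0.516 and 0.693.

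**Figure D2:**
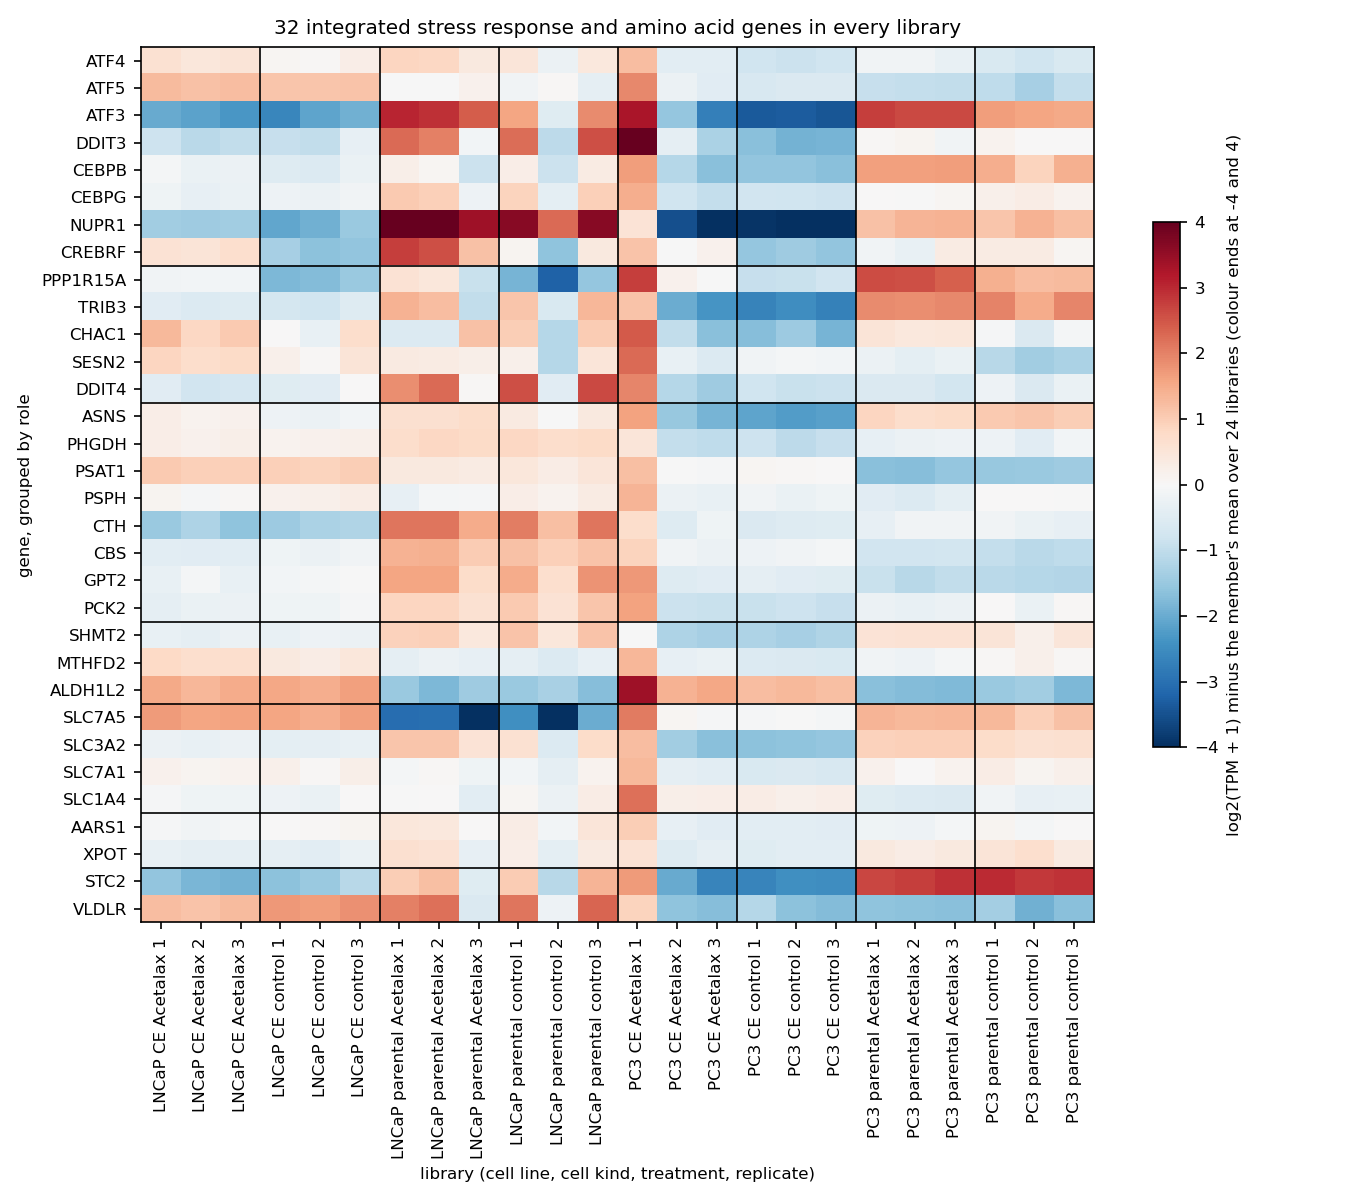
Rows are the 32 genes grouped by role, columns the 24 libraries, and colour is log2(TPM + 1) minus the mean of that gene over all libraries, ending at -4 and 4. In PC3 CE Acetalax 1 every gene but SHMT2 lies above its mean, and ATF3, NUPR1 and STC2 lie below theirs in every CE library outside that one.

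PC3 CE Acetalax 1 held the highest level of all 24 libraries for 19 of the 32 members, among them ATF4, DDIT3, CHAC1, ASNS, SESN2 and all 4 amino acid transporters. The summed level of the members was 9518 TPM in that library, 2175 and 2040 TPM in the other libraries of the group, 1919 to 1958 TPM in PC3 CE controls and 4917 to 5019 TPM in the PC3 parental Acetalax libraries. Its epithelial markers summed to 33.1 TPM and its TRPM4 level was 14.6 TPM, against 24.0 to 24.4 TPM and 15.4 to 16.4 TPM in the other libraries of its group. Its largest ratios to the other libraries of the group were those of ATF3 (44.2), NUPR1 (32.9), DDIT3 (28.5) and STC2 (17.2).

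Short promoter stretches are printed because they hold the DNA elements through which ATF4 and related factors are known to act. RefSeq promoters (GRCh38.p14, 250 bases before to 50 after the gene start) were found for 27 of the 32 members, 42 promoters in all, and searched on both strands. The C/EBP-ATF response element TGATGCAA was present in 4 of these 42 promoters (9.52%) and in 0.866% of all 35116 promoters. Each line gives 30 bases, 5′ to 3′ on the strand of the gene, with the element in capitals (TTGCATCA is TGATGCAA read on the other strand).
SLC1A4 (chr2:64989381-64989410, plus strand): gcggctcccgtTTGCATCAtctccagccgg
CHAC1 (chr15:40953251-40953280, plus strand): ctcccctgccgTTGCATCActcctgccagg
AARS1 (chr16:70289675-70289704, minus strand): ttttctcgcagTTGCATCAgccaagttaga
CEBPG (chr19:33374060-33374089, plus strand): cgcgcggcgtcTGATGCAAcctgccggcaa
PPP1R15A (chr19:48872352-48872381, plus strand): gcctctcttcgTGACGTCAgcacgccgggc
The last line shows the cAMP response element TGACGTCA, which was found in 1 of the 42 promoters (2.38%) and in 1.85% of all. The first base of the element lay 7 bases before the RefSeq start in SLC1A4, 209 in CHAC1, 187 in AARS1, 42 in CEBPG and 58 in PPP1R15A. The ATF6 element TGACGTGG, which shares 6 letters with the cAMP element, was in 0 of the 42 promoters and 0.729% of all. These are matches of letters in 1 window per start, and they describe no binding.

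Acetalax for 4 h was compared with no treatment in each of the 4 kinds of cells, which asks how the genes respond to the drug in parental cells and in those labelled CE. With all libraries ATF4, PPP1R15A and CREBRF, a regulator of CREB3 factors that is induced when eIF2 is phosphorylated in other settings, were called higher in 3 of the 4 kinds of cells. In LNCaP CE cells 5 of 32 members were called higher and 0 lower (ATF4, ASNS, PPP1R15A, MTHFD2 and CREBRF; edgeR's quasi-likelihood test, Benjamini-Hochberg adjusted p under 0.05), where 3.34% of all tested genes were called higher and 4.06% lower. In LNCaP parental cells 5 were higher and 0 lower (ATF4, ATF3, ASNS, PPP1R15A and CREBRF), where 4.04% of genes were higher and 4.41% lower. In PC3 CE cells 5 were higher and 0 lower (ATF4, ATF3, DDIT3, PPP1R15A and CREBRF), where 4.67% of genes were higher and 3.47% lower. In PC3 parental cells 0 members were called, with 0 at an unadjusted p under 0.05 and 0 in DESeq2, which gave no adjusted p for 12 of them. There, edgeR called 3.49% of genes higher and 4.31% lower, and DESeq2 called 13.5% of genes in either direction. When the fit held only the libraries compared, the 5 LNCaP CE calls held, the LNCaP parental ones were all lost (adjusted p = 0.265 for ATF4, 0.241 for ATF3, 0.188 for ASNS, 0.115 for PPP1R15A and 0.147 for CREBRF), and in PC3 CE cells CREBRF alone held (0.0431). The other adjusted p-values in PC3 CE cells were then 0.221 for ATF4, 0.17 for ATF3, 0.191 for DDIT3 and 0.176 for PPP1R15A. In that fit 9 PC3 parental members were called higher and 6 lower, where 13.3% of genes were higher and 13.7% lower. ATF3 (log2 fold change 1.18 ± 0.07, adjusted p = 2.09e-07) and PPP1R15A (1.22 ± 0.08, adjusted p = 9.6e-07) were among the higher. CREBRF (-0.58 ± 0.10, adjusted p = 0.000963) was among the lower. In LNCaP CE cells 20 members were higher and 2 lower, where 24.6% and 24.9% of genes were. In bulk RNA a lower value cannot be told apart from fewer cells of a type that makes the RNA.

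Without the 3 libraries that stand apart, 18 members were called higher and 1 lower in LNCaP CE cells (17.7% and 16.4% of all genes). There were 12 higher and 4 lower in LNCaP parental cells (14.3% and 12.3%), 12 higher and 1 lower in PC3 CE cells (7.77% and 8.64%) and 9 higher and 8 lower in PC3 parental cells (13.0% and 14.4%). The fold changes of the PC3 parental members were the same to within rounding in both fits, because the same 6 libraries were compared. What differed was the spread, which the 12 PC3 libraries share in the fit and to which PC3 CE Acetalax 1 contributed. The median log2 fold change of the members was 0.18 in LNCaP CE, 0.14 in LNCaP parental, 1.29 in PC3 CE and 0.07 in PC3 parental cells with all libraries, and 0.19, 0.11, 0.14 and 0.07 in that order without the 3, while the median over all genes stayed between -0.01 and 0.01. The small medians depend on the scaling. On log2(TPM + 1) with all libraries they were 0.03, 0.08, 0.80 and 0.008 in that order, and the all-gene medians in the first 3 were -0.07, -0.05 and -0.03.

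**Figure D3:**
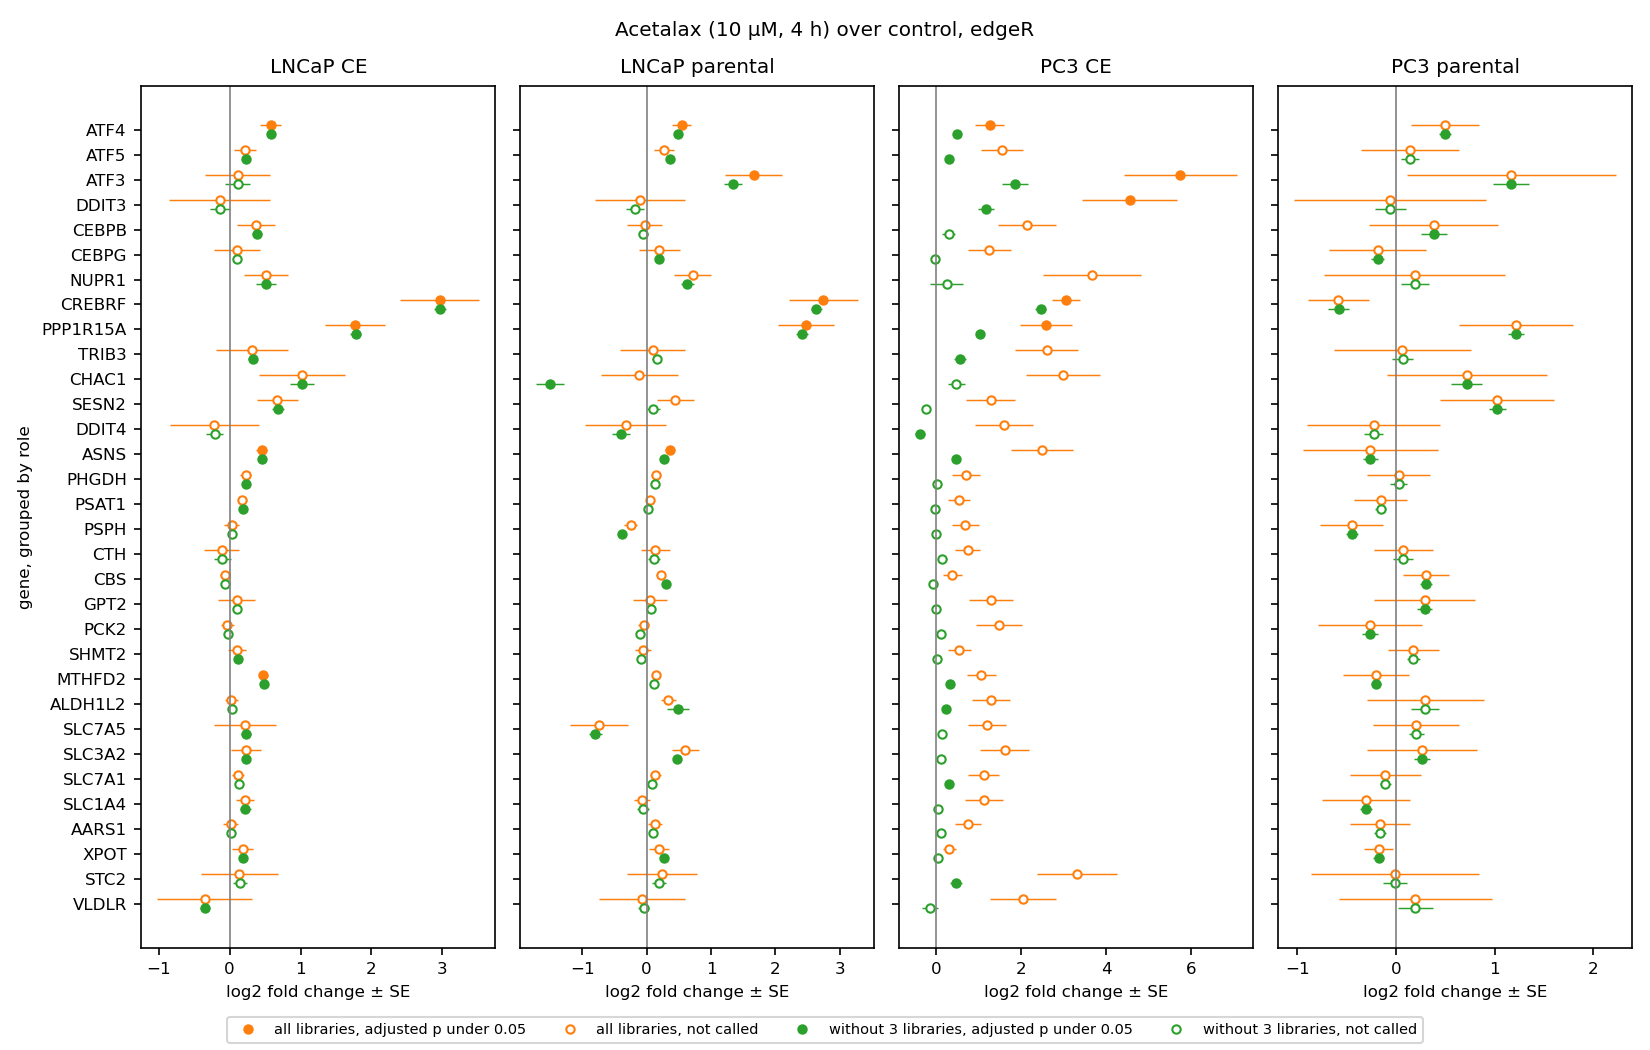
The 4 panels give the log2 fold change ± SE of Acetalax over control for each gene, with all libraries (orange) and without the 3 libraries that stand apart (green); filled dots have an edgeR adjusted p under 0.05, and each panel has its own horizontal scale. CREBRF lies far to the right in LNCaP CE (2.96), LNCaP parental (2.75) and PC3 CE (3.05) and left of 0 in PC3 parental cells (-0.58), and the orange dots of PC3 CE lie right of the green ones.

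The genes described first are ATF4 (ENSG00000128272.15, chr22:39519695-39522685), ATF3 (ENSG00000162772.17, chr1:212565334-212620777), DDIT3 (ENSG00000175197.12, chr12:57516588-57521737), CREBRF (ENSG00000164463.12, chr5:173056352-173139284) and PPP1R15A (ENSG00000087074.8, chr19:48872392-48876057), in GENCODE 29 coordinates on GRCh38. CREBRF stood at 9.75, 9.40 and 10.6 TPM in LNCaP CE Acetalax libraries and 1.89, 1.34 and 1.45 TPM in LNCaP CE controls. It stood at 48.3, 42.5 and 15.3 TPM in LNCaP parental Acetalax libraries and 6.76, 1.36 and 8.45 TPM in their controls. PC3 CE cells had 15.0, 6.14 and 7.11 TPM with Acetalax and 1.48, 1.71 and 1.44 TPM without. Every Acetalax library in these 3 pairs of groups lay above every control, and the log2 fold changes were 2.96 ± 0.55 (SE, n = 3 each, edgeR adjusted p = 0.00978), 2.75 ± 0.54 (adjusted p = 0.00975) and 3.05 ± 0.33 (adjusted p = 0.000611). PC3 parental cells had 5.60, 4.85 and 8.10 TPM with Acetalax and 8.02, 8.07 and 6.72 TPM without, groups that overlapped. Their log2 fold change was -0.58 ± 0.31 (adjusted p = 0.322) with all libraries and -0.58 ± 0.10 (adjusted p = 0.000493) without the 3. The LNCaP CE call was lost without LNCaP CE control 1 or control 2 (adjusted p = 0.0511 and 0.0526).

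ATF4, the central transcription factor of the response, stood at 740.0, 666 and 696 TPM in LNCaP CE Acetalax libraries and 521, 499.5 and 589 TPM in LNCaP CE controls. PC3 parental libraries had 439.6, 439 and 401 TPM with Acetalax and 319, 283 and 319.8 TPM without. Acetalax and control did not overlap in either pair. ATF4 had a log2 fold change of 0.58 ± 0.14 (adjusted p = 0.0347) in LNCaP CE and 0.50 ± 0.35 (adjusted p = 0.483) in PC3 parental cells, where it was 0.50 ± 0.06 (adjusted p = 1.83e-05) without the 3 libraries. In LNCaP parental libraries ATF4 was at 881, 873 and 637 TPM with Acetalax and 686, 413 and 655 TPM without, so that the groups overlapped through Acetalax 3 (log2 fold change 0.54 ± 0.14, adjusted p = 0.0409). In PC3 CE libraries it was at 1141, 360.4 and 365 TPM with Acetalax and 279, 268 and 282 TPM without. The log2 fold change of 1.25 ± 0.35 there (adjusted p = 0.04998) became 0.48 ± 0.07 (adjusted p = 0.000126) without PC3 CE Acetalax 1. These ATF4 calls lay close to the threshold. Omitting single libraries ended the call in 9 of 12 cases in LNCaP parental cells (all but parental Acetalax 3, control 1 and control 2). It ended in 9 of 12 in PC3 CE cells (all but the 3 PC3 CE Acetalax libraries) and in 7 of 12 in LNCaP CE cells (every CE library and LNCaP parental Acetalax 2).

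ATF3, a stress-induced repressor and activator of the same family, stood at 221, 202 and 204 TPM in PC3 parental Acetalax libraries and 103, 95.9 and 92.6 TPM in PC3 parental controls. In LNCaP parental libraries it was at 268, 245 and 173 TPM with Acetalax and 97.0, 22.0 and 119 TPM without. The groups did not overlap in either parental line, with log2 fold changes of 1.17 ± 1.06 (adjusted p = 0.623; 1.17 ± 0.18 and adjusted p = 0.000188 without the 3 libraries) in PC3 and 1.66 ± 0.45 (adjusted p = 0.044; 1.34 ± 0.13 and 2.45e-06 without the 3) in LNCaP. In PC3 CE libraries ATF3 was at 311, 10.2 and 3.85 TPM with Acetalax and 2.17, 2.26 and 2.04 TPM without. The log2 fold change of 5.74 ± 1.33 there (adjusted p = 0.0249) was 1.86 ± 0.31 (adjusted p = 0.000646) without PC3 CE Acetalax 1. LNCaP CE cells had 7.11, 6.43 and 5.48 TPM with Acetalax and 4.37, 6.56 and 7.64 TPM without, groups that overlapped (log2 fold change 0.11 ± 0.46, adjusted p = 0.966). The LNCaP parental call was lost in 9 of 12 omissions (it held without Acetalax 3, control 2 or control 3 of the parental cells), and the PC3 CE call without any of the 3 PC3 CE controls (adjusted p between 0.1 and 0.106).

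DDIT3 (CHOP), a C/EBP factor tied to cell death under prolonged stress, was called higher in PC3 CE cells with all libraries. It was at 936, 43.0 and 22.7 TPM with Acetalax and 16.7, 14.4 and 14.6 TPM without, and the log2 fold change of 4.55 ± 1.12 (adjusted p = 0.032) was 1.17 ± 0.19 (adjusted p = 0.000544) without Acetalax 1. LNCaP parental libraries ranged from 51.4 to 274 TPM with Acetalax and from 26.4 to 340.9 TPM without, with Acetalax 3 and control 2 as the low libraries. DDIT3 also overlapped in LNCaP CE cells (26.2 to 31.1 TPM with Acetalax and 27.4 to 44.3 TPM without) and in PC3 parental cells (50.1 to 60.5 TPM with Acetalax and 56.3 to 62.4 TPM without). The PC3 CE call was lost in 9 of 12 omissions, all but the 3 PC3 CE Acetalax libraries.

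Among the other regulators, the fit with all libraries gave no call, and the calls given here leave out the 3 libraries that stand apart. NUPR1, a small stress-induced chromatin protein, was at 13.0, 12.9 and 13.2 TPM in LNCaP CE Acetalax libraries and 7.74, 8.80 and 12.1 TPM in their controls, groups that did not overlap (log2 fold change 0.51 ± 0.31, adjusted p = 0.412; 0.51 ± 0.14 and 0.00903 without the 3 libraries). ATF5, an ATF4-related factor of mitochondrial and proteotoxic stress, rose without the 3 libraries in LNCaP CE (0.23 ± 0.05), LNCaP parental (0.37 ± 0.06) and PC3 CE cells (0.31 ± 0.09), with adjusted p of 0.00226, 0.000508 and 0.0343. CEBPB rose there in LNCaP CE (0.38 ± 0.07, adjusted p = 0.000409) and PC3 parental cells (0.38 ± 0.13, adjusted p = 0.0406). CEBPG, the C/EBP partner of ATF4, rose in LNCaP parental (0.19 ± 0.06) and fell in PC3 parental cells (-0.19 ± 0.06).

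PPP1R15A, the feedback subunit of the eIF2 phosphatase, was higher with Acetalax in all 12 treated libraries than in any control of its own cells. It stood at 31.1, 31.7 and 31.5 TPM in LNCaP CE Acetalax libraries and 9.09, 9.65 and 11.7 TPM in their controls (log2 fold change 1.77 ± 0.42, adjusted p = 0.0294). LNCaP parental libraries had 51.2, 47.5 and 18.2 TPM with Acetalax and 8.75, 2.73 and 10.9 TPM without (2.47 ± 0.43, adjusted p = 0.00556). PC3 CE libraries had 241, 38.8 and 33.5 TPM with Acetalax and 17.7, 18.1 and 19.6 TPM without (2.58 ± 0.61, adjusted p = 0.027). PC3 parental libraries had 212, 211 and 184 TPM with Acetalax and 92.5, 81.0 and 83.8 TPM without. Here the log2 fold change was 1.22 ± 0.58 (adjusted p = 0.268), and 1.22 ± 0.08 (adjusted p = 7.19e-08) without the 3 libraries. Without them the change was 1.78 ± 0.08 in LNCaP CE, 2.41 ± 0.10 in LNCaP parental and 1.03 ± 0.09 in PC3 CE cells, so that ATF4 and PPP1R15A were the members called higher in 4 of 4 kinds of cells. With all libraries, the LNCaP CE call was lost without any 1 of the 6 LNCaP CE libraries and the PC3 CE call without any of the 3 PC3 CE controls.

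**Figure D4:**
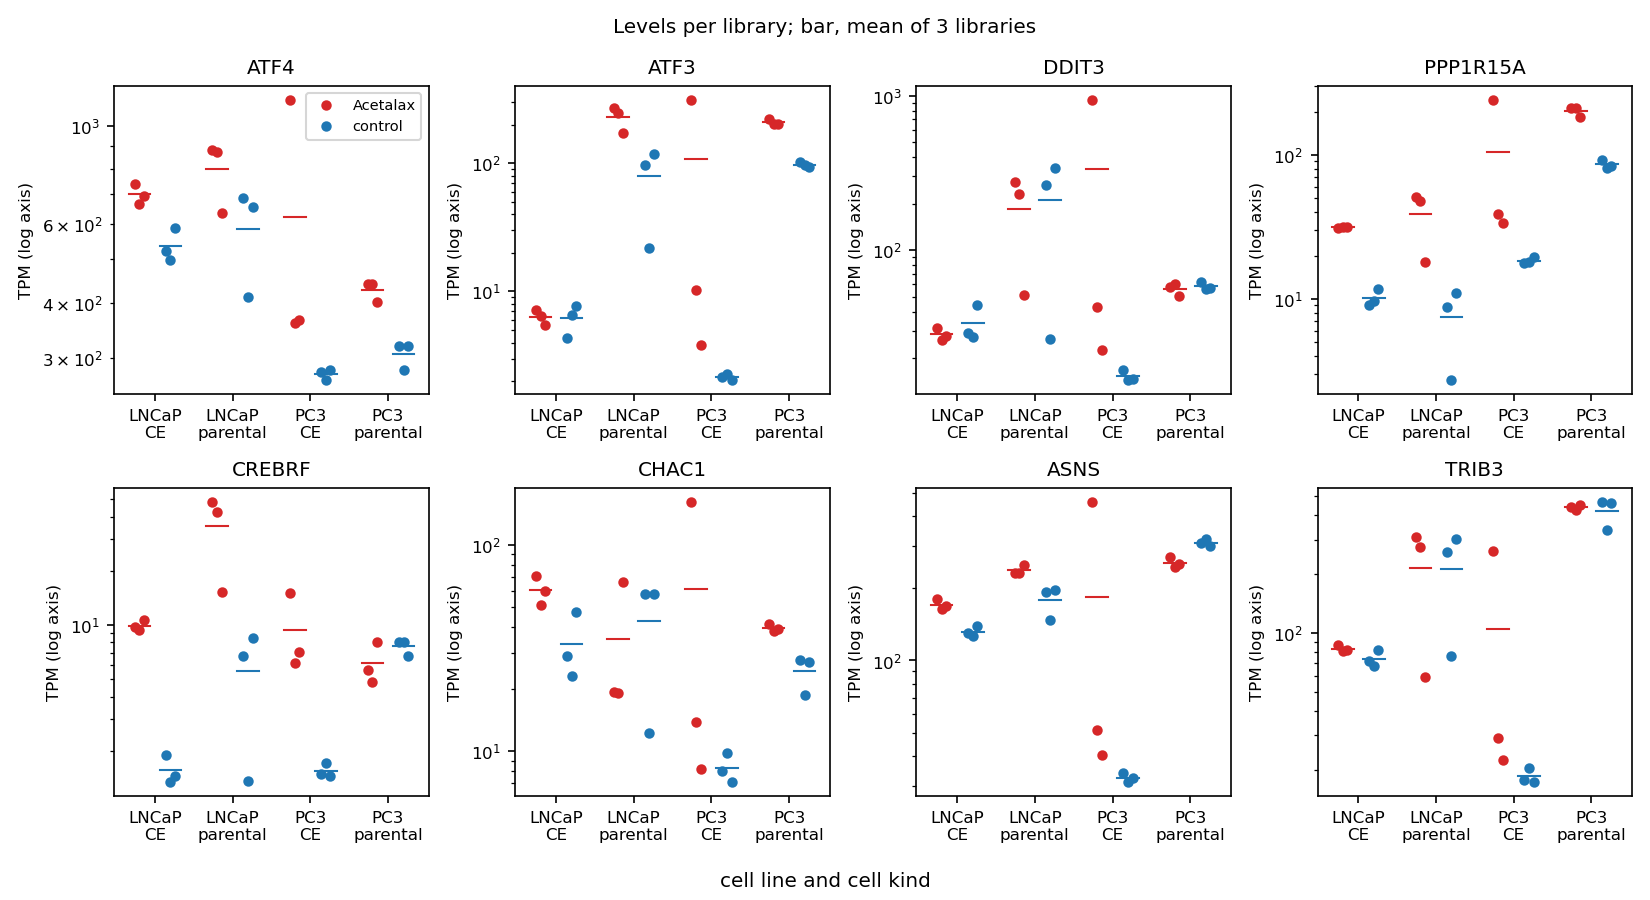
Dots are TPM of 8 genes in each library on log axes, red for Acetalax and blue for control, and bars are means of 3 libraries. PPP1R15A lies higher with Acetalax in each of the 4 kinds of cells, CREBRF in all but PC3 parental cells, and PC3 CE Acetalax 1 forms the single high red dot of PC3 CE in every panel.

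Among the other effectors, CHAC1, which degrades glutathione, went different ways in the kinds of cells once the 3 libraries were left out. LNCaP CE libraries had 70.6, 51.2 and 59.6 TPM with Acetalax and 28.9, 23.1 and 47.1 TPM without. PC3 parental libraries had 41.3, 38.1 and 39.0 TPM with Acetalax and 27.7, 18.7 and 27.1 TPM without. Neither pair overlapped, and the log2 fold changes without the 3 libraries were 1.02 ± 0.17 (adjusted p = 0.000186) and 0.72 ± 0.16 (adjusted p = 0.00306), against 1.02 ± 0.60 and 0.72 ± 0.81 with all libraries (adjusted p = 0.398 and 0.715). LNCaP parental libraries had 19.3, 19.2 and 66.0 TPM with Acetalax and 57.7, 12.3 and 58.1 TPM without. Acetalax 3 was the high library of the treated group and control 2 the low one of the controls. The log2 fold change was -0.11 ± 0.60 (adjusted p = 0.98) with them and -1.50 ± 0.21 (adjusted p = 7.59e-05) without them. The latter value rests on 2 libraries in each group and on the choice of those left out.

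SESN2, a leucine sensor that holds back mTORC1, was at 28.3, 24.9 and 27.2 TPM in PC3 parental Acetalax libraries and 14.9, 12.0 and 13.2 TPM in their controls. It was at 60.7, 55.0 and 57.7 TPM in LNCaP CE Acetalax libraries and 38.2, 34.4 and 47.6 TPM in their controls. Neither pair overlapped, and without the 3 libraries the log2 fold changes were 1.03 ± 0.08 (adjusted p = 6.44e-07) and 0.68 ± 0.08 (adjusted p = 1.65e-05), while neither was called with all libraries (1.03 ± 0.58 and 0.67 ± 0.28). In PC3 CE cells SESN2 and DDIT4, another mTORC1 inhibitor, had positive values with all libraries (1.29 ± 0.58 and 1.59 ± 0.69, adjusted p = 0.18 and 0.17) and negative ones without Acetalax 1 (-0.24 ± 0.09 and -0.38 ± 0.11, adjusted p = 0.0858 and 0.0229). TRIB3 rose without the 3 libraries in LNCaP CE (0.33 ± 0.06, adjusted p = 0.000508) and PC3 CE cells (0.56 ± 0.14, adjusted p = 0.00962).

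The called amino acid enzymes had smaller log2 fold changes than PPP1R15A or CREBRF. ASNS, which makes asparagine, was at 181, 163 and 169.7 TPM in LNCaP CE Acetalax libraries and 130.0, 126 and 139.7 TPM in their controls. In LNCaP parental cells it was at 233, 232 and 251 TPM with Acetalax and 194, 148 and 197 TPM without. Both pairs were separate, with log2 fold changes of 0.45 ± 0.08 (adjusted p = 0.00734) and 0.36 ± 0.08 (adjusted p = 0.0175). In PC3 parental cells ASNS had -0.26 ± 0.69 (adjusted p = 0.913), and without the 3 libraries it fell there (-0.26 ± 0.08, adjusted p = 0.0252). ASNS had 2.49 ± 0.73 (adjusted p = 0.0585) in PC3 CE cells, and 0.46 ± 0.09 (adjusted p = 0.00346) without PC3 CE Acetalax 1. MTHFD2, a mitochondrial folate enzyme, had 414, 381 and 378 TPM in LNCaP CE Acetalax libraries and 311, 293 and 324 TPM in LNCaP CE controls, which did not overlap (0.48 ± 0.06, adjusted p = 0.00191). Without the 3 libraries MTHFD2 rose in PC3 CE (0.33 ± 0.06, adjusted p = 0.000735) and fell in PC3 parental cells (-0.20 ± 0.05, adjusted p = 0.00654). Neither was called with all libraries. PSPH, the last enzyme of serine synthesis, fell without the 3 libraries in LNCaP parental (-0.38 ± 0.07, adjusted p = 0.000442) and PC3 parental cells (-0.45 ± 0.06, adjusted p = 4.81e-05). Called values of the remaining enzymes without the 3 libraries lay between -0.26 (PCK2 in PC3 parental) and 0.49 (ALDH1L2 in LNCaP parental, adjusted p = 0.0497). That ALDH1L2 value is uncertain, since the gene was near the floor and its TPM did not rise. It was at 0.59 and 0.30 TPM with Acetalax and 0.61 and 0.37 TPM without, in the LNCaP parental libraries kept.

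Of the transporters, SLC3A2, the heavy chain that carries SLC7A5 to the membrane, rose without the 3 libraries in LNCaP CE (0.23 ± 0.04), LNCaP parental (0.48 ± 0.04) and PC3 parental cells (0.26 ± 0.08). SLC7A5, the leucine transporter itself, was low in LNCaP parental cells, at 8.63, 8.95 and 2.86 TPM with Acetalax and 13.5, 3.98 and 19.1 TPM without. These groups overlapped through control 2, and the log2 fold change was -0.74 ± 0.45 (adjusted p = 0.415) with all libraries and -0.80 ± 0.10 (adjusted p = 2.68e-05) without the 3. The 4 members with the C/EBP-ATF element differed among themselves in PC3 parental cells without the 3 libraries, where CHAC1 rose, SLC1A4 fell (-0.30 ± 0.06) and CEBPG fell (-0.19 ± 0.06), and AARS1 was not called (-0.16 ± 0.06, adjusted p = 0.0649).

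Whether the response differed between CE and parental cells, and between the lines, was tested as a difference of log2 fold changes. CREBRF was the 1 member called with all libraries. Its response was larger in PC3 CE than in PC3 parental cells by 3.64 ± 0.45 (adjusted p = 0.0014), where 8.03% of all genes were called in either direction, and larger in LNCaP parental than in PC3 parental cells by 3.34 ± 0.64 (adjusted p = 0.00264), where 5.05% of genes were called. Both differences share the PC3 parental libraries. Without the 3 libraries they were 3.04 ± 0.16 and 3.21 ± 0.15, and no omission of a single library ended either call. With all libraries the differences of the other 31 members between PC3 CE and PC3 parental cells were positive too, 13 of 32 at an unadjusted p under 0.05, and moved with PC3 CE Acetalax 1. The share of all genes at an unadjusted p under 0.05 was not counted, here or in the next paragraph. Such counts therefore cannot be called particular to the members.

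Without the 3 libraries 9 members had a larger and 2 a smaller log2 fold change in PC3 CE than in PC3 parental cells (22.5% of all genes called). DDIT3 (1.23 ± 0.25, adjusted p = 0.00199) and ASNS (0.72 ± 0.12, adjusted p = 0.000685) were among the higher ones, and SESN2 was lower (-1.27 ± 0.12, adjusted p = 5.73e-06). Between LNCaP CE and LNCaP parental cells 0 members were called with all libraries, where 1.28% of genes were called. DESeq2 called 1 member and 5.58% of genes, and 3 members had an unadjusted p under 0.05. Without the 3 libraries 8 members were higher and 4 lower (19.3% of genes). CHAC1 led the higher ones (2.52 ± 0.27, adjusted p = 1.54e-05), and ATF3 (-1.23 ± 0.22, adjusted p = 0.000975) and PPP1R15A (-0.63 ± 0.12, adjusted p = 0.00208) were among the lower ones. Without the 3 libraries the LNCaP parental response exceeded that of PC3 parental cells for 7 members and fell short of it for 4 (19.3% of genes called in this comparison). PPP1R15A was among the higher (1.19 ± 0.13, adjusted p = 7.05e-07) and CHAC1 among the lower (-2.22 ± 0.30, adjusted p = 6.36e-06). Between LNCaP CE and PC3 CE cells 0 members were called with all libraries, where 0.0774% of genes were called. DESeq2 called 2 members and 0.861% of genes, and 13 members had an unadjusted p under 0.05. Without the 3, PPP1R15A (0.77 ± 0.13) and SESN2 (0.94 ± 0.14) responded more in LNCaP CE and ATF3 (-1.72 ± 0.39) and DDIT3 (-1.28 ± 0.27) less, where 3.51% of genes were called.

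Untreated CE cells were compared with untreated parental cells of the same line, which sets the cells as labelled against each other. Since the CE libraries nearly lack the epithelial markers and resemble each other more than the parental cells of their own line, their descent from these lines could not be checked here. These comparisons share their control libraries with the Acetalax comparisons above, and most genes differed in them. In LNCaP, 6 of 32 members were called higher and 13 lower in CE cells, where 36.0% of all tested genes were higher and 39.3% lower. In PC3, 3 were called higher and 14 lower, where 38.5% of genes were higher and 39.0% lower. The median log2 difference of the members was -0.28 in LNCaP and -0.85 in PC3, against -0.06 and -0.01 over all genes. Without the 3 libraries 6 members were higher and 23 lower in LNCaP (84.8% of genes called in either direction), and 7 higher and 24 lower in PC3 (84.4%). The markers given above moved with these groups, with epithelial sums of 8.85 to 11.2 TPM in LNCaP CE controls and 1754 to 2201 TPM in LNCaP parental controls, and of 25.6 to 28.8 TPM in PC3 CE controls and 3368 to 3873 TPM in PC3 parental controls. Their part in the member values was not tested.

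**Figure D5:**
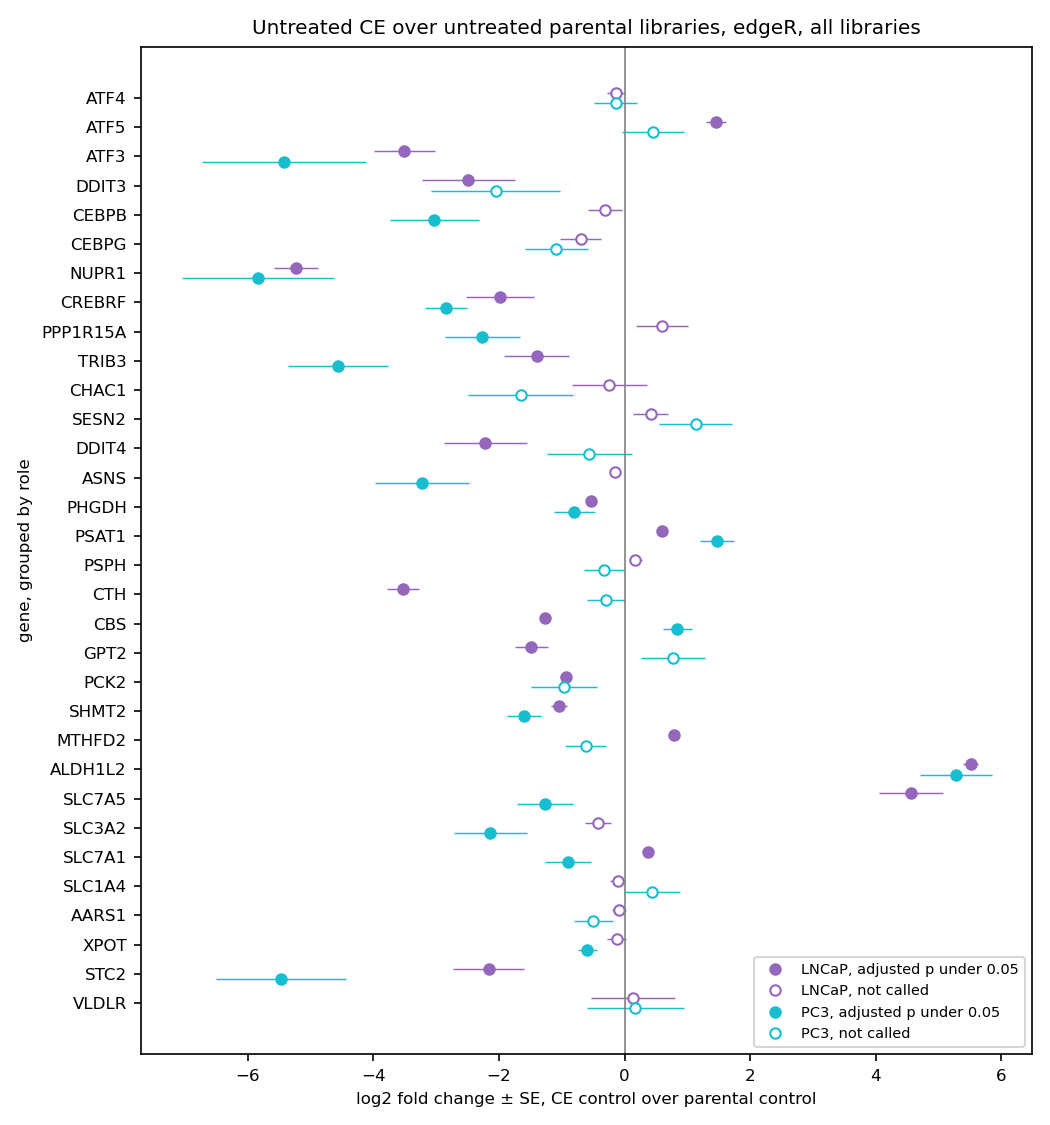
Dots are log2 fold changes ± SE of untreated CE over untreated parental libraries for each gene, purple for LNCaP and blue for PC3, filled where the edgeR adjusted p is under 0.05. ALDH1L2 lies near 5 in both lines (5.52 and 5.28), NUPR1, ATF3, STC2, TRIB3 and CREBRF lie left of 0 in both, and SLC7A5 lies at 4.57 in LNCaP and -1.27 in PC3.

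With all libraries 7 members were lower in the CE cells of both lines (ATF3, NUPR1, CREBRF, TRIB3, STC2, PHGDH and SHMT2), which is 7 of the 13 lower in LNCaP and 7 of the 14 lower in PC3. Of all genes tested in both lines 20.6% were lower in both. Leaving out the 3 libraries, 19 members were lower in both, against 24.7% of genes; the added ones were ATF4, DDIT3, DDIT4, CHAC1, ASNS, SLC3A2, CEBPB, CEBPG, CTH, PCK2, XPOT and AARS1. NUPR1 was at 7.74, 8.80 and 12.1 TPM in LNCaP CE controls and 459, 177 and 455 TPM in LNCaP parental controls. In PC3 it was at 1.44, 1.25 and 1.28 TPM in PC3 CE controls and 78.0, 95.2 and 83.2 TPM in PC3 parental controls. NUPR1 log2 fold changes were -5.23 ± 0.35 (adjusted p = 1.37e-07) and -5.84 ± 1.21 (adjusted p = 0.000858), with no overlap. STC2, a secreted glycoprotein induced by stress, stood at 26.0, 28.9 and 37.5 TPM in LNCaP CE controls and 167, 37.7 and 212 TPM in LNCaP parental controls. In PC3 it was at 12.4, 14.3 and 13.9 TPM in CE controls and 659.8, 591 and 616 TPM in parental controls, for log2 fold changes of -2.17 ± 0.57 (adjusted p = 0.00479) in LNCaP and -5.47 ± 1.04 (adjusted p = 0.000457) in PC3. The LNCaP groups of STC2 came within 1 TPM of each other through parental control 2 and did not overlap.

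ATF3 had log2 fold changes of -3.51 ± 0.49 in LNCaP (adjusted p = 5.85e-05) and -5.43 ± 1.31 in PC3 (adjusted p = 0.0025). TRIB3 was at 72.4, 67.8 and 81.9 TPM in LNCaP CE controls and 259, 76.7 and 301 TPM in LNCaP parental controls, which overlapped through control 2. In PC3 it was at 17.8, 20.5 and 17.3 TPM in PC3 CE controls and 467, 335 and 463 TPM in PC3 parental controls, which did not. Their log2 fold changes were -1.40 ± 0.52 (adjusted p = 0.0292) and -4.57 ± 0.80 (adjusted p = 0.000256). The LNCaP call of TRIB3 was lost without any of the LNCaP CE controls or without parental control 1 or 3 (adjusted p up to 0.104), and it was -1.82 ± 0.06 (adjusted p = 2.3e-13) without the 3 libraries. CREBRF had -1.98 ± 0.54 in LNCaP (adjusted p = 0.00602) and -2.84 ± 0.33 in PC3 (adjusted p = 8.53e-06).

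ALDH1L2, the mitochondrial enzyme that oxidises formyl-tetrahydrofolate, and PSAT1, the transaminase of serine synthesis, rose in both lines, as did 23.7% of all genes. ATF5 was also called higher in both lines without the 3 libraries, against 28.2% of genes. ALDH1L2 was at 12.2, 11.4 and 13.0 TPM in LNCaP CE controls and 0.61, 0.83 and 0.37 TPM in LNCaP parental controls. In PC3 it was at 9.53, 10.1 and 9.25 TPM in PC3 CE controls and 0.62, 0.71 and 0.29 TPM in PC3 parental controls. Nothing overlapped, and the log2 fold changes were 5.52 ± 0.12 (adjusted p = 2.77e-11) and 5.28 ± 0.57 (adjusted p = 4.05e-06). The parental levels were near the floor, and the TPM values show a smaller rise than these fold changes, so the size is uncertain. PSAT1 rose by 0.60 ± 0.06 in LNCaP (adjusted p = 7.3e-06) and 1.47 ± 0.27 in PC3 (adjusted p = 0.000397) on the log2 scale. PHGDH, the first enzyme of serine synthesis, fell in both (-0.54 ± 0.08 in LNCaP and -0.80 ± 0.32 in PC3, adjusted p = 9.64e-05 and 0.0399). PSPH was called in neither line with all libraries (0.17 ± 0.11 and -0.33 ± 0.32).

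With all libraries the lines differed in the direction of the call for 3 members, against 14.9% of all genes. They did for 6 without the 3 libraries, against 20.3% of genes: SLC7A5, SLC7A1 and MTHFD2 were higher in LNCaP CE and lower in PC3 CE cells, and CBS, GPT2 and SLC1A4 the other way round. SLC7A5 was at 237, 219.5 and 247 TPM in LNCaP CE controls and 13.5, 3.98 and 19.1 TPM in LNCaP parental controls (log2 fold change 4.57 ± 0.51, adjusted p = 9.56e-06). In PC3 it was at 75.7, 77.8 and 74.6 TPM in PC3 CE controls and 194, 155 and 181 TPM in PC3 parental controls (-1.27 ± 0.44, adjusted p = 0.0207). SLC7A1, the arginine and lysine transporter, was 0.38 ± 0.08 in LNCaP and -0.90 ± 0.36 in PC3 (adjusted p = 0.00176 and 0.0387). CBS, which feeds homocysteine into cysteine synthesis, was -1.27 ± 0.08 and 0.84 ± 0.23 (adjusted p = 4.86e-08 and 0.00576). CBS has a near-identical copy, CBSL, at 84.6 to 92.6 TPM in LNCaP CE controls and 3.00 to 4.76 TPM in LNCaP parental controls. CBSL was at 83.7 to 88.9 TPM in PC3 CE controls and 0.09 to 0.39 TPM in PC3 parental controls, so the division of reads between them makes the CBS values uncertain. The difference between the lines in the CE change itself was not tested.

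The remaining calls with all libraries came in 1 line each, and all but PPP1R15A were called in both lines without the 3 libraries, as listed above. In LNCaP CE cells ATF5 rose (1.46 ± 0.16), as did MTHFD2 (0.80 ± 0.06), and CTH, the cystathionine lyase that makes cysteine (-3.53 ± 0.25), DDIT3 (-2.49 ± 0.74), DDIT4 (-2.22 ± 0.66), GPT2 (-1.48 ± 0.27) and PCK2 (-0.94 ± 0.09) fell, with adjusted p from 2.18e-07 to 0.0101. CTH stood at 1.94, 2.33 and 2.49 TPM in LNCaP CE controls and 31.8, 17.3 and 33.9 TPM in LNCaP parental controls. In PC3 CE cells ASNS fell (-3.23 ± 0.75), as did CEBPB (-3.03 ± 0.71), PPP1R15A (-2.27 ± 0.60), SLC3A2 (-2.14 ± 0.58) and XPOT (-0.59 ± 0.15), with adjusted p from 0.0019 to 0.0054. ASNS was at 33.9, 31.1 and 32.3 TPM in PC3 CE controls and 311, 322 and 299.6 TPM in PC3 parental controls, with no overlap. ATF4 RNA was called in neither line with all libraries (-0.14 ± 0.14 in LNCaP and -0.14 ± 0.35 in PC3, adjusted p = 0.392 and 0.715). Without the 3 it was lower in both (-0.34 ± 0.06 and -0.14 ± 0.06, adjusted p = 3.57e-05 and 0.0399). The PC3 calls of PHGDH, SLC7A5 and SLC7A1 were lost in 8, 4 and 9 of 12 omissions of single libraries, with adjusted p up to 0.109.

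Between the lines, LNCaP parental controls differed from PC3 parental controls in 17 members, 13 higher and 4 lower in LNCaP (35.5% of all genes were higher and 34.7% lower). They differed in 26 members without the 3 libraries, 18 higher and 8 lower (76.6% of genes called). VLDLR, a lipoprotein receptor, was at 28.6, 4.88 and 32.7 TPM in LNCaP and 1.62, 0.79 and 1.09 TPM in PC3 (4.16 ± 0.85, adjusted p = 0.000204), and GPT2, an alanine aminotransferase, and CTH were also higher (2.81 ± 0.46 and 2.38 ± 0.29). SLC7A5 (-4.05 ± 0.52, adjusted p = 8.31e-07), PPP1R15A (-3.57 ± 0.59, adjusted p = 1.83e-05), STC2 (-1.77 ± 0.78, adjusted p = 0.0495) and CEBPB (-1.34 ± 0.54, adjusted p = 0.0333) were lower in LNCaP. LNCaP CE controls differed from PC3 CE controls in 15 members, 14 higher and 1 lower in LNCaP (16.7% of genes were higher and 24.2% lower). They differed in 31 members without the 3 libraries, 28 higher and 3 lower (58.8% of genes called). VLDLR again led (4.09 ± 0.84, adjusted p = 0.000542), followed by NUPR1 (2.74 ± 0.92, adjusted p = 0.0213), ASNS (2.16 ± 0.54, adjusted p = 0.00307), CHAC1 (2.14 ± 0.79, adjusted p = 0.0357) and TRIB3 (2.13 ± 0.68, adjusted p = 0.0153), and CTH was the lower one (-0.89 ± 0.29, adjusted p = 0.0187). The STC2 call between parental controls was lost in 19 of 24 omissions of single libraries, and the CEBPB call without LNCaP parental control 2 or PC3 parental control 1 or 3. Between CE controls, the calls of CHAC1 (5 of 24 omissions), NUPR1 (3), TRIB3 (2) and CTH (2) were lost only through omission of LNCaP or PC3 CE controls. In TPM, 26 of 32 members were higher in all 3 LNCaP CE controls than in any PC3 CE control, and 3 were lower. The share of all genes separated in this way was not counted, so these counts cannot be called particular to the members.

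Other genes around the pathway were grouped in lists, and list counts use all libraries unless stated. For the further amino acid transporters and the other one-carbon, proline and glutamine genes, only single called genes are given, without counts. Those genes do not stand for their lists, here or in the next 2 paragraphs. Shares of all genes follow the order LNCaP CE, LNCaP parental, PC3 CE and PC3 parental. With all libraries 3.34%, 4.04%, 4.67% and 3.49% rose with Acetalax and 4.06%, 4.41%, 3.47% and 4.31% fell. Without the 3 libraries 17.7%, 14.3%, 7.77% and 13.0% rose and 16.4%, 12.3%, 8.64% and 14.4% fell. These shares hold for this paragraph and the next, and no list was tested against them. Of 18 genes of the eIF2 kinases, eIF2 and eIF2B, 3 rose with Acetalax in LNCaP CE, 1 in LNCaP parental, 3 in PC3 CE and 0 in PC3 parental cells, and 0 fell in any. In that order of cells, 7, 6, 4 and 3 rose and 1, 1, 1 and 5 fell without the 3 libraries. PPP1R15B, the constitutive counterpart of PPP1R15A, rose by 0.45 ± 0.11 in LNCaP CE, 0.69 ± 0.11 in LNCaP parental and 0.93 ± 0.22 in PC3 CE cells (adjusted p = 0.0342, 0.00331 and 0.0293; 0.50 ± 0.07 in PC3 CE cells without Acetalax 1), and EIF2AK3 (PERK), the endoplasmic reticulum kinase, by 0.62 ± 0.09 in PC3 CE cells (adjusted p = 0.00219). Of 19 cytosolic tRNA synthetases other than AARS1, 1, 2, 0 and 0 rose in the same order of cells and 0 fell. Without the 3 libraries 13 rose and 1 fell in LNCaP CE cells and 1 rose and 12 fell in PC3 parental cells. Their counts without the 3 libraries in LNCaP parental and PC3 CE cells are not given. Of 16 further amino acid transporters tested, SLC38A2, which carries neutral amino acids, rose in LNCaP CE (1.37 ± 0.32, adjusted p = 0.0258) and PC3 CE cells (0.53 ± 0.08, adjusted p = 0.00364) and fell in PC3 parental cells (-0.60 ± 0.08, adjusted p = 0.00163).

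Of 26 other reported targets of ATF4 and CHOP, 2 rose in LNCaP CE, 3 in LNCaP parental, 2 in PC3 CE and 0 in PC3 parental cells with Acetalax, and 0 fell (12, 9, 9 and 3 higher and 0, 5, 0 and 7 lower without the 3 libraries). BBC3 (PUMA), which triggers cell death, rose by 1.44 ± 0.31 in LNCaP CE, 1.34 ± 0.31 in LNCaP parental and 1.00 ± 0.18 in PC3 CE cells (adjusted p = 0.0195, 0.0232 and 0.00724). Of 22 endoplasmic reticulum chaperones and targets of XBP1 or ATF6, 2 rose in LNCaP CE, 0 in LNCaP parental, 2 in PC3 CE and 4 in PC3 parental cells, where 1 fell (9, 4, 6 and 10 higher and 0, 4, 0 and 2 lower without the 3 libraries). DNAJB9, a co-chaperone of the reticulum, rose in LNCaP CE (1.14 ± 0.23, adjusted p = 0.0132) and PC3 CE cells (2.14 ± 0.23, adjusted p = 0.000611) and fell in PC3 parental cells (-0.99 ± 0.23, adjusted p = 0.0213). Of 20 or 21 tested genes of other one-carbon, proline and glutamine metabolism, MAT2A, which makes S-adenosylmethionine, fell in LNCaP CE (-1.11 ± 0.10), LNCaP parental (-1.20 ± 0.10) and PC3 CE cells (-0.59 ± 0.14; adjusted p = 0.000243, 7.99e-05 and 0.0243). Of 18 hypoxia-inducible genes, 2 were called higher in PC3 CE cells, CA9 (4.30 ± 1.19, adjusted p = 0.0482) and ADM (2.00 ± 0.56, adjusted p = 0.0491), and 0 were called in the other kinds of cells. In LNCaP parental libraries these genes summed to 1293 to 5764 TPM with Acetalax and 1313 to 6698 TPM without. With that spread, 0 calls there do not show that the genes stayed unchanged. CA9 was at 39.5, 2.47 and 0.75 TPM in PC3 CE Acetalax libraries and 0.74, 0.70 and 0.64 TPM in PC3 CE controls, so that its value rests on Acetalax 1 (0.76 ± 0.26, adjusted p = 0.0569, without it). ADM was 0.61 ± 0.09 (adjusted p = 0.000313) without that library. Of 16 p53 targets, 2 rose in LNCaP CE cells, 1 rose and 1 fell in LNCaP parental and in PC3 CE cells, and 2 rose and 1 fell in PC3 parental cells. Counts without the 3 libraries are not given for the hypoxia and p53 lists.

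In untreated CE cells against untreated parental cells, the eIF2 list had 13 genes higher and 4 lower of 18 in LNCaP and 4 higher and 5 lower in PC3, led in LNCaP by the double-stranded RNA kinase EIF2AK2 (1.98 ± 0.07). The tRNA synthetases had 10 higher and 1 lower of 19 in LNCaP and 3 higher and 8 lower in PC3, and EPRS1 fell by 1.72 ± 0.22 in PC3 on the log2 scale. For these counts the share of all genes was 36.0% higher and 39.3% lower in LNCaP, and 38.5% and 39.0% in PC3. The endoplasmic reticulum list had 0 higher and 15 lower of 22 in LNCaP and 3 higher and 6 lower in PC3. The other targets of ATF4 and CHOP had 4 higher and 13 lower of 26 in LNCaP, with GDF15, a secreted stress factor, at -7.34 ± 0.76, and 9 higher and 14 lower in PC3. PYCR1, the proline synthesis enzyme, was lower in LNCaP CE (-11.72 ± 0.46) and PC3 CE cells (-8.20 ± 0.49), and BCAT1, a branched-chain aminotransferase, was higher (11.16 ± 0.35 and 4.71 ± 0.70). SLC7A11, the cystine transporter, was lower in PC3 CE cells (-5.53 ± 0.96, adjusted p = 0.000224). Leaving out the 3 libraries, the counts in LNCaP were 14 higher and 4 lower for the eIF2 list, 13 and 4 for the tRNA synthetases, 4 and 16 for the reticulum list and 6 and 16 for the other ATF4 and CHOP targets. In PC3 they were 5 and 8, 3 and 13, 6 and 11, and 10 and 14 in that order. Of all genes 40.6% were then higher and 44.2% lower in LNCaP, and 41.7% and 42.7% in PC3. Some of these fold changes set a group near 0 TPM against one well above it, and their size depends on the small count added in the fit. The medians of the 4 lists named first in this paragraph were 0.49, 0.32, -0.53 and -0.71 in LNCaP and -0.10, -0.55, -0.11 and -0.86 in PC3, against -0.06 and -0.01 over all genes.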

How the data were processed

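RNA-seq values of 24 libraries were deposited as 2 tables, gene by library. The expected counts and the TPM (length- and depth-scaled) values were made by the authors with STAR 2.7 and RSEM on GRCh38, with FastQC, per the submitters' processing notes; no source used here gives the annotation release or the strand setting. Of the expected counts, 10.2% were not whole, and all were rounded before testing. The tables hold 2 columns of no listed sample (1 in each), which were not used. Gene coordinates and IDs follow GENCODE 29 on GRCh38.

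Groups came from the labels. The labels speak of triplicates without naming separate cultures, so p-values measure the spread between these libraries. Replicate libraries differed by more than counting noise (chi-square over degrees of freedom of 3.43 or more in every pair). Rounded counts were filtered (filterByExpr, minimum count 10), scaled by TMM and tested with edgeR 4.0.16 quasi-likelihood fits in R 4.3.3, over the 12 libraries of a line, or all 24 for contrasts between lines. P-values were Benjamini-Hochberg adjusted over all tested genes, with a threshold of 0.05. SEs are the log2 fold change over the square root of F, and TPM values are used for levels. The fits were tested on simulated data. Alternatives were RLE scaling, no filter, DESeq2 1.42.0, limma 3.58.1 on log2(TPM + 1) and log2(TPM + 0.1), a replicate block, only the libraries compared, leaving out each library, and leaving out the 3 libraries that stand apart. Those 3 were picked from these same data. The fit of only the libraries compared without those 3 was added after seeing the data.

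The members and all gene lists were chosen with earlier results of these data known. Given in full were, per comparison, the called members, led by the largest changes, and members whose libraries of 1 group disagree; of each other list, at most the 3 called genes with the largest changes; and TRPM4, HSPA6, VEGFA and NDRG1. A few uncalled members are named for contrast, chosen after their values were seen. Promoters and their coordinates are from RefSeq (GRCh38.p14).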

Additional observations from a re-analysis of the deposited data

Results flagged for a closer look

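CREBRF was singled out because its response to Acetalax differed between groups by a test of the difference itself (interaction term, edgeR). The log2 fold change in PC3 CE cells exceeded that in PC3 parental cells by 3.64 ± 0.45 (SE, adjusted p = 0.0014), with 3 of 3 Acetalax libraries above every control in PC3 CE cells and overlapping groups in PC3 parental cells. The log2 fold change in LNCaP parental cells exceeded that in PC3 parental cells by 3.34 ± 0.64 (adjusted p = 0.00264). Both differences use the same PC3 parental libraries, and were 3.04 ± 0.16 and 3.21 ± 0.15 without the 3 libraries that stand apart.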

How the results depend on the processing

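Counts of the 32 members called follow the order PC3 parental, LNCaP parental, PC3 CE and LNCaP CE for Acetalax, then CE against parental controls in PC3 and LNCaP, then the differences of response (PC3 CE minus parental, LNCaP CE minus parental, parental LNCaP minus PC3, CE LNCaP minus PC3), then LNCaP against PC3 in parental and in CE controls. Without the 3 libraries that stand apart the counts were 17, 16, 13, 19, 31, 29, 11, 12, 11, 4, 26 and 31. Of all genes 27.3%, 26.6%, 16.4%, 34.1%, 84.4%, 84.8%, 22.5%, 19.3%, 19.3%, 3.51%, 76.6% and 58.8% were then called. With only the libraries compared they were 15, 0, 1 and 22 for Acetalax, 31 for PC3 CE against parental controls, 2 for the parental difference of response and 31 for CE controls. Of all genes 27%, 0.882%, 1.29%, 49.4%, 85.5%, 3.5% and 76.6% were called there, in that order. With only the libraries compared and without those that stand apart, an alternative chosen after seeing the data, they were 14 (LNCaP parental), 15 (PC3 CE), 10 (parental difference) and 8 (CE difference). The shares of all genes were 23.7%, 31.4%, 14.6% and 14.1%. Without the filter they were 14 in PC3 CE (3.88% of genes), 2 for the PC3 difference (3.24%) and 1 for the CE difference (0.0558%). With limma at either pseudocount they were 1 in PC3 CE (6.55% and 6.16% of genes) and 3 in LNCaP CE (10.2% and 8.82%). DESeq2 called 9 for PC3 CE against parental controls (78.1% of genes), 1 for the LNCaP difference (5.58%) and 2 for the CE difference (0.861%). In the first of these it gave no adjusted p for 12 members, and it ended 0 of the calls for which it gave one. Leaving out each library in turn, the ranges in the same order were 0 to 17, 3 to 8, 1 to 26, 2 to 7, 14 to 31, 18 to 25, 1 to 11, 0 to 2, 1 to 3, 0 to 1, 12 to 24 and 11 to 24. The cause was not tested. Shares of all genes are not given for these single omissions, so the ranges cannot be called particular to the members. Of 85 called member values, 56 kept their call under every alternative that gave an adjusted p, and 0 reversed. DESeq2 gave an adjusted p for 68 of the 85 and kept all 68; for the other 17 it gave none, and 10 of the 56 are among these 17.

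Same-numbered libraries did not pair: of 36 pairs, 1 had a correlation of deviations over 0.1 (range -0.59 to 0.333). With the replicate block the counts in the same order were 0, 4, 1, 3, 17, 18, 1, 0, 1, 0, 17 and 17, and 8 called member values lost their call. The shares of all genes were 5.31%, 5.72%, 4.96%, 4.49%, 76.6%, 72.8%, 5.02%, 0.284%, 4.46%, 0.041%, 69.6% and 40.2%.

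Each group has 3 libraries, the libraries of a fit share 1 estimate of spread, and line and medium cannot be told apart. The lowest library total was 40160832 expected counts.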
